A study of Mus musculus with 8 samples.

Results

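Every droplet library holds barcodes in which an unusually large part of the captured RNA comes from the mitochondrial genome, and the filter used in the study set these barcodes aside. They are described here for 8 subcutaneous B16F10 melanomas. A barcode was taken when it held between 200 and 5000 detected genes and when transcripts of the 13 mitochondrial protein genes (named mt-) made up more than 7.5% of its unique molecular identifiers (UMIs, counted molecules). Of 41925 barcodes in the 8 libraries, 41253 lay within the gene limits and 12842 of these, 31.1%, were above the mitochondrial limit. These barcodes, chosen by their measured mitochondrial share, are called members below. The comparison barcodes came from the same tumours and gene limits and had a mitochondrial share between 2 and 7.5%, which left 24981. The remaining 3430 barcodes were below 2%.

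The 8 tumours were grown from B16F10 cells, a mouse melanoma line, in the flank of C57BL/6 hosts and taken when large, at 300 mm3, with 4 of them in Atf4 WT/WT hosts and the other 4 in Atf4 Δ/Δ hosts, all labelled as 12 weeks old. All hosts of both genotypes carried Rosa26::CreERT2, a tamoxifen-inducible recombinase active in most tissues, and were given tamoxifen. In Atf4 Δ/Δ hosts the floxed gene was excised, whereas the grafted melanoma cells kept an intact Atf4. The Atf4 WT/WT group had 2 males and 2 females and the Atf4 Δ/Δ group 3 males and 1 female (replicate 1). Each library was 1 tumour of 1 mouse and held between 37283598 and 74942137 UMIs.

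Members were divided by the pigment genes Mlana, Pmel, Dct, Tyr and Tyrp1, which mark melanoma cells. Barcodes with at least 0.3% of their UMIs on these genes are called marker-positive and the others marker-negative. Of the members, 12435 were marker-positive and 407 marker-negative, or 3.17%. A marker-negative barcode is a range of a score and not a cell type. Of the marker-negative members 174 lay near the limit, at 0.2 to 0.3%, as did 285 of the 1489 marker-negative comparison barcodes, and 38 and 178 had no UMI on the 5 genes. Among marker-positive members 205 lay between 0.3 and 0.4%.

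As background, the mitochondrial genome encodes 13 subunits of the respiratory chain and of ATP synthase, while the other subunits are encoded in the nucleus, translated in the cytosol and imported. Mitochondrial transcripts lie inside organelles and cytosolic transcripts do not. A high mitochondrial share is therefore commonly read as a sign of a damaged cell that lost cytosolic RNA, although cells rich in mitochondria also reach high shares.

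The Atf4 WT/WT replicate 4 library stood apart. Across tumours, the member-to-comparison log2 ratios of 3210 genes correlated with those of the other 7 libraries at r between 0.499 and 0.563, and the other 7 correlated among themselves at 0.762 to 0.879. Its members were also the shallowest. Results that rest on it are given with and without it. Of all barcode sequences, 199 occurred in at least 2 libraries, and these took 0.942% of the members and 0.957% of the comparison barcodes. Doublets were not removed.

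The share of barcodes above the limit was lower in tumours of Atf4 Δ/Δ hosts. In Atf4 WT/WT hosts 35.0%, 34.8%, 34.2% and 36.7% of the barcodes within the gene limits were members. In Atf4 Δ/Δ hosts the shares were 33.8%, 22.4%, 26.4% and 21.6%. The groups did not overlap, although Atf4 Δ/Δ replicate 1, the only female of its group, lay just below the lowest Atf4 WT/WT tumour. The means were 35.2% ± 1.05 and 26.1% ± 5.55 (SD, n = 4 each), a difference of -9.12 percentage points with an exact two-sided permutation p of 0.0286, the smallest that 4 against 4 tumours allow. Without any 1 of the Atf4 WT/WT tumours the difference was -9.44 to -8.62 points and the exact permutation p 0.0571. Without any 1 of the Atf4 Δ/Δ tumours the difference was -11.7 to -7.64 points and the exact permutation p 0.0286. With the limit at 10% the tumours overlapped, the difference was -4.16 points and the exact permutation p was 0.0571. The marker-negative part of the members averaged 2.88% in the Atf4 WT/WT and 4.08% in the Atf4 Δ/Δ tumours (exact permutation p = 0.143).

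**Figure D1:**
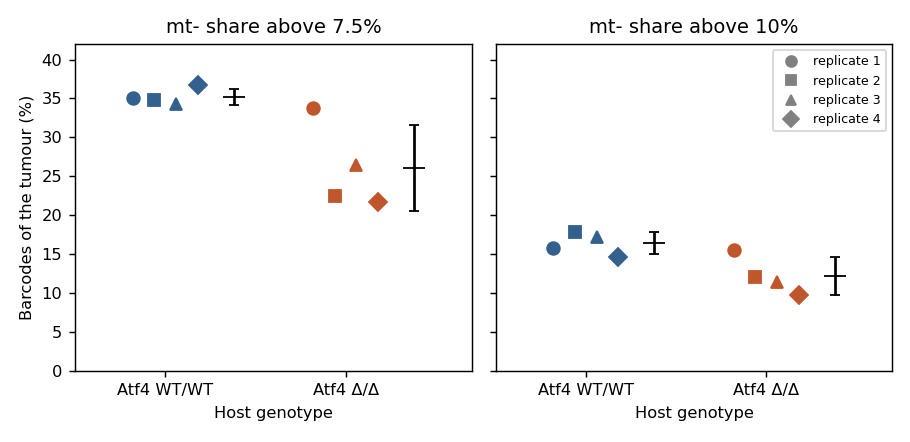
Percentage of barcodes with 200 to 5000 genes whose mitochondrial share exceeded 7.5% (left) or 10% (right), 1 point per tumour, with the mean and SD of the 4 tumours of each host genotype beside the points. At 7.5% the Atf4 WT/WT tumours lie between 34.2 and 36.7% and the Atf4 Δ/Δ tumours between 21.6 and 33.8%, and at 10% the ranges overlap.

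The limit was crossed less often by marker-negative barcodes. On average 31.5% ± 6.10 of marker-positive and 18.8% ± 6.98 of marker-negative barcodes (SD, n = 8 tumours) were above it, a difference of -12.6 points seen in 7 of 8 tumours (exact sign-flip permutation p = 0.0156). The exception was Atf4 Δ/Δ replicate 3, with 26.3% of marker-positive and 28.7% of marker-negative barcodes. With the limit at 10% the difference was -1.68 points (exact permutation p = 0.391). The pigment share was taken of all UMIs, so more mitochondrial UMIs lower it, and with pigment UMIs divided by the non-mitochondrial UMIs the difference was -17.9 points (exact permutation p = 0.00781), in 8 of 8 tumours.

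The rule itself fixes that members hold many mitochondrial relative to other UMIs, so depth is given as a description. The tumours' median counts of non-mitochondrial UMIs per barcode averaged 6417 ± 1408 in members and 9433 ± 856 in comparison barcodes (SD, n = 8), and the ratio ran from 0.403 in Atf4 WT/WT replicate 4 to 0.790. Their median mitochondrial counts averaged 770 UMIs and 536 UMIs. Members thus held both more mitochondrial and fewer other UMIs. When every barcode was thinned to 1000 non-mitochondrial UMIs, members and comparison barcodes showed 665 ± 16.5 and 667 ± 8.73 genes per barcode (exact sign-flip permutation p = 0.930). The thinning left out 1382 members and 636 comparison barcodes that were shallower. Atf4 WT/WT replicate 4 had 630 genes in members against 665, and without it the mean difference turned from -2.75 to 1.90 genes.

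Most members lay close to the limit. In all, 6899 had a mitochondrial share of 7.5 to 10%, 2691 of 10 to 15%, 1213 of 15 to 25%, 1631 of 25 to 50% and 408 above 50%. Around the limit, 2699 barcodes lay between 7 and 7.5% and 2187 between 7.5 and 8%. Among marker-positive barcodes the median over tumours of the median UMI count was 10437 just outside the limit and 10265.5 just inside it, against 1961 at 25 to 50%.

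The rule used the sum of the mitochondrial UMIs and not how they divide among the 13 genes. The division was tested with barcodes of both marker classes pooled. It was measured on the same UMIs that set the rule, so this test is not independent of the choice of members. The division differed between members and comparison barcodes for 10 of the 13 genes (76.9%) at an adjusted p under 0.05, by exact sign-flip permutation over 8 tumours with Benjamini-Hochberg adjustment. The 13 genes encode subunits of cytochrome c oxidase (mt-Co), NADH dehydrogenase (mt-Nd) and ATP synthase (mt-Atp), besides cytochrome b (mt-Cytb). In 8 of 8 tumours members had a larger part of their mitochondrial UMIs on mt-Co3, with 15.4% ± 0.448 against 14.5% ± 0.414 (SD, n = 8). The same held for mt-Co2, at 16.7% against 16.0%, and for mt-Atp6, at 25.4% against 24.9%. Each of these 3 genes had an exact permutation p of 0.00781, the smallest that 8 tumours allow, or 0.0113 adjusted. The same 3 genes took the largest parts of the mitochondrial UMIs in both states. How far choosing members by the sum, or pooling the classes, shaped the division was not tested.

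In the other direction, mt-Nd1 took 5.57% ± 0.448 of the members' mitochondrial UMIs against 6.48% ± 0.780 and was lower in 8 of 8 tumours. Of the genes given with the rule as its markers, mt-Co1 took 10.2% against 10.8% and was also lower in 8 of 8, while mt-Cytb (12.92% against 13.03%) and mt-Nd4 (5.86% against 5.99%) did not pass, with adjusted exact permutation p of 0.220 and 0.0554. Lower shares also passed for mt-Nd2, mt-Nd3, mt-Nd5, mt-Nd6 and mt-Atp8. With the barcodes of both states limited to 3000 to 15000 non-mitochondrial UMIs the difference of mt-Atp6 was -0.0030 points, and with members above 10% that of mt-Atp8 was 0.0138 points.

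**Figure D2:**
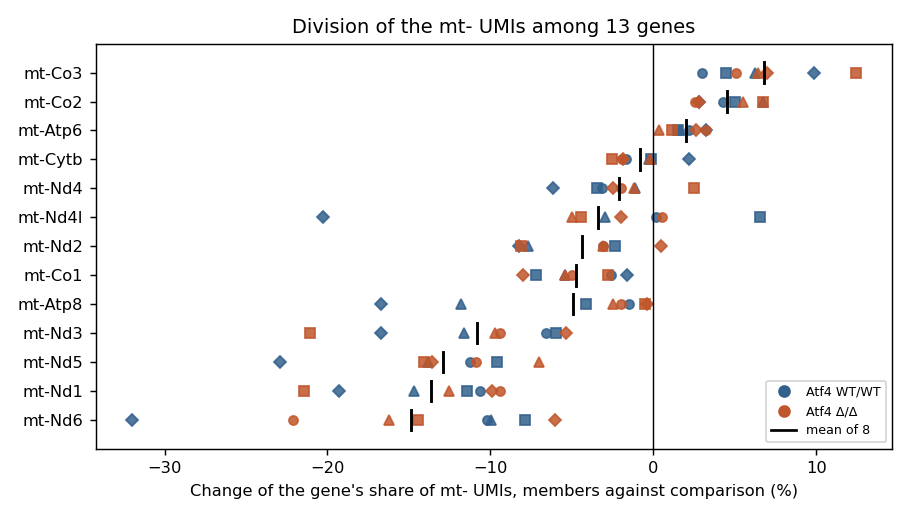
Change of each mitochondrial gene's share of the mitochondrial UMIs, members against comparison barcodes of the same tumour, in percent of the comparison share, with 1 point per tumour (circle, square, triangle and diamond for replicates 1 to 4) and a bar at the mean of 8. mt-Co3, mt-Co2 and mt-Atp6 lie to the right of 0 in all 8 tumours, mt-Nd1 lies between -21.4 and -9.41%, and mt-Nd6 reaches -32.0% in Atf4 WT/WT replicate 4.

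The remaining RNA was compared after all mitochondrial UMIs were removed. UMIs were summed per tumour, class and state and tested with edgeR's quasi-likelihood test, with the tumour as a block and Benjamini-Hochberg adjustment over all genes tested. Levels of single genes are given as TMM-scaled counts per 1000000 of these UMIs (CPM), and summed levels of gene lists as UMIs per 1000000 without that scaling (UPM). In marker-positive barcodes 12233 genes were tested. Of these, 2412 were higher in members (19.7%) and 2734 lower (22.3%), or 42.1% in either direction, and the median log2 fold change of all genes was 0.01. Without Atf4 WT/WT replicate 4, 2651 were higher and 2973 lower. Higher genes made up 46.9% of those past the threshold, 60.2% when library totals were used without TMM scaling and 28.6% when mitochondrial UMIs were kept in the library totals.

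Genes of cell division were lower in marker-positive members. All 21 measured genes of the G2/M list fell, with a median log2 fold change of -0.50, as did all 16 of the S phase list, with a median of -0.37. Both counts were the same without Atf4 WT/WT replicate 4, and both medians stayed negative under every scaling tried. Tpx2, a spindle assembly factor, stood between 54.4 and 81.3 CPM in members (median 63.8) and between 86.7 and 111 CPM in comparison barcodes (median 97.6), with a log2 fold change of -0.59 ± 0.04 (SE, edgeR adjusted p = 6.68e-12). Hmgb2, a chromatin protein abundant in dividing cells, ranged from 264 to 454 CPM (median 348) against 474 to 646 CPM (median 582) and fell by 0.69 on the log2 scale. For both genes no tumour's members reached the lowest comparison value. Top2a, the topoisomerase that untangles chromosomes before mitosis, had a median of 197 against 312 CPM (log2 fold change -0.57 ± 0.06), and its ranges overlapped between 255 and 292 CPM.

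The S phase gene Mcm3, part of the replicative helicase, had a log2 fold change of -0.50 ± 0.03, with 78.8 to 109 CPM in members and 114 to 151 CPM in comparison barcodes. Among the largest decreases were also Smc4, which acts in chromosome condensation, Prc1 and Incenp, which act at the spindle midzone, Ube2c, which acts in cyclin destruction, and the chromatin genes Hist1h1e and Hirip3. The chemokine gene Cxcl10 fell by 0.61 on the log2 scale. Its levels, 24.5 to 127 CPM in members, overlapped those of the comparison barcodes, at 36.7 to 156 CPM.

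Many genes of the G2/M list hold a cell cycle element (CHR, here the letters TTTGAA on either strand) near their start. Within 250 bases before to 50 after the start, 13 of the 18 G2/M genes with a RefSeq promoter (GRCm38.p6) held it (72.2%), against 1 of 14 S phase genes (7.14%) and 5466 of all 27025 promoters (20.2%). The 4 sequences show the element, in capitals, in the G2/M genes that ranked first by adjusted p among those with the match nearest the start lying before it.
Kif11, chr19:37376351-37376380, plus strand: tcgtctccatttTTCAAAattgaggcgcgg
Cdk1, chr10:69352910-69352939, minus strand: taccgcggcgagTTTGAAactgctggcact
Cdc20, chr4:118437344-118437373, minus strand: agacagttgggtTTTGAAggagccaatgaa
Top2a, chr11:99024195-99024224, minus strand: gctagataaaggTTCAAAtgaaactaggga
The match starts 19, 15, 18 and 23 bases before the annotated transcript start and lies on the opposite strand in Kif11 and Top2a. Each letter match is a description of the promoter and not an occupied site.

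Several targets of the tumour suppressor p53 were higher. Of 15 measured genes of the p53 and apoptosis list, 8 rose and 1 fell, with a list median of 0.11. Trp53inp1, a stress-induced p53 cofactor, held 30.5 to 46.5 CPM in members (median 36.3) and 15.9 to 23.4 CPM in comparison barcodes (median 18.9), a log2 fold change of 0.99 ± 0.05 (SE, edgeR adjusted p = 3.43e-15). Cdkn1a, which encodes the cyclin-dependent kinase inhibitor p21, had 205 to 296 CPM (median 244) against 136 to 188 CPM (median 158), and Ccng1 had 71.0 to 111 CPM against 49.7 to 62.7 CPM. The ranges of these 3 genes did not overlap. Phlda3, an inhibitor of Akt signalling, rose by 0.62 ± 0.05 (log2, SE). Among members above 25%, Cdkn1a and Phlda3 turned to log2 fold changes of -0.53 and -0.35.

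Several of the large increases in marker-positive members were of genes on no list. Kcnj13, an inwardly rectifying potassium channel, had 20.3 to 135 CPM (median 34.7) against 6.29 to 25.7 CPM (median 10.9), a log2 fold change of 2.03 ± 0.16 (SE, edgeR adjusted p = 2.51e-05). Cck, the precursor of the peptide cholecystokinin, had a median of 159 against 79.5 CPM and a log2 fold change of 1.16 ± 0.05. Both were higher in 8 of 8 tumours, although the tumours differed widely in level and the ranges overlapped. Ptgds, a prostaglandin D synthase and lipocalin, had 1772 to 3262 CPM against 1251 to 1631 CPM, and S100b, a calcium-binding protein of neural crest cells, 193 to 346 CPM against 135 to 184 CPM. Neither pair of ranges overlapped. The others were Mgll, a monoacylglycerol lipase (0.80 ± 0.12, log2 fold change and SE), Coq8a, which acts in coenzyme Q synthesis (0.77 ± 0.04), and the selenium carrier Selenop (0.65 ± 0.07). Among members above 25% the log2 fold change turned to -0.39 for Cck, -0.34 for Ptgds, -0.27 for S100b, -0.0298 for Mgll and -0.45 for Selenop.

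Nuclear-encoded genes of the respiratory chain rose by small amounts. Of 77 measured, 50 rose and none fell in marker-positive members, with a median log2 fold change of 0.09. With mitochondrial UMIs kept in the library totals 32 rose and 13 fell, beside 1559 and 3892 of all 12238 genes tested. Without Atf4 WT/WT replicate 4, 52 rose and 2 fell. Uqcrh, a subunit of complex III, had 794 to 912 CPM against 651 to 783 CPM (log2 fold change 0.26 ± 0.03). Of 18 genes for upkeep and expression of the mitochondrial genome, 1 rose and 7 fell. The riser, named after its value was seen, was Ppargc1a, a coactivator of mitochondrial gene programmes (0.29 ± 0.06). Of 11 mitochondrial chaperones and proteases, none rose and 6 fell, among them Hspd1, the matrix chaperonin, at 938 to 1253 CPM against 1175 to 1469 CPM (-0.27 ± 0.03). Nuclear respiratory chain genes and mitochondrial chaperones thus differed in direction in the same sums of barcodes, though a difference between the lists was not tested.

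Genes of the ATF4 and heat shock lists were mostly lower in marker-positive members, beside 22.3% of all genes tested. Of 23 targets of ATF4 and the integrated stress response, 15 fell and 1 rose, with a median of -0.20. The riser, named after its value was seen, was Gdf15. Mthfd2 and Shmt2, enzymes of mitochondrial one-carbon metabolism, had log2 fold changes of -0.40 ± 0.03 and -0.39 ± 0.04. Of 9 heat shock proteins 7 fell and none rose (median -0.25), of 19 genes of oxidative stress defence 8 fell and 1 rose, of 17 immediate early genes 8 fell and 2 rose, and of 29 genes of hypoxia and glycolysis 8 fell and 1 rose, a share near that of all genes. The last of these lists had 13 that fell without Atf4 WT/WT replicate 4, beside 2973 of all 12219 genes tested. With mitochondrial UMIs in the totals it had 19, beside 3892 of 12238. Hsp90aa1, an inducible cytosolic chaperone, had a median of 2240 against 2790 CPM (-0.33 ± 0.03).

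Genes of cholesterol and fatty acid synthesis and of lysosomes were higher. In the first list 14 of 18 rose and none fell (median 0.14), with Scd2, a fatty acid desaturase, at 0.36 ± 0.03. Of 11 lysosomal genes 8 rose and none fell (median 0.11), with the protease Ctsd at 0.26 ± 0.03. When mitochondrial UMIs were kept in the library totals 7 of the 18 and 4 of the 11 rose, beside 1559 of all 12238 genes tested. Of 12 pigment genes that were not part of the marker rule, 7 rose, among them the melanosomal transporter genes Oca2 (0.39 ± 0.04) and Slc45a2 (0.18 ± 0.03), and 1, Kit, fell (named after its value was seen). These 12 are given as a description, since the class was set on a pigment share of all UMIs. The 5 pigment genes of the marker rule, of which 4 rose in each class, set the classes, and nothing is read from them. Of 81 cytosolic ribosomal proteins 4 rose and 23 fell with a median of -0.04. Without TMM scaling 14 rose and 12 fell, beside 3087 and 2040 of all 12233 genes tested. Without Atf4 WT/WT replicate 4, 4 rose and 51 fell, beside 2651 and 2973 of 12219. Of 13 genes of the ER chaperone list 1 rose and 3 fell, and of 21 interferon and MHC genes 1 rose and 4 fell. Over all genes tested 19.7% rose and 22.3% fell, and the falls of the ER and interferon lists were near that share.

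Markers of other cell types were scarce in marker-positive barcodes. Fibroblast markers summed to 4.77 to 90.0 UPM in members (median 37.6) and 5.30 to 180 in comparison barcodes (median 64.9), and 5 of 8 tested fell (median log2 fold change -0.87). Macrophage markers summed to 9.38 to 115 UPM (median 23.4) against 7.60 to 60.5 (median 21.1), and 1 of 6 tested, Cd68, rose. The highest macrophage value was in Atf4 WT/WT replicate 4. No marker of erythroid cells, dendritic cells, neutrophils, T and NK cells or keratinocytes passed the filter on low counts, and none of the 3 endothelial and 2 muscle genes tested passed the threshold. The part of these cells in the results above was not tested.

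**Figure D3:**
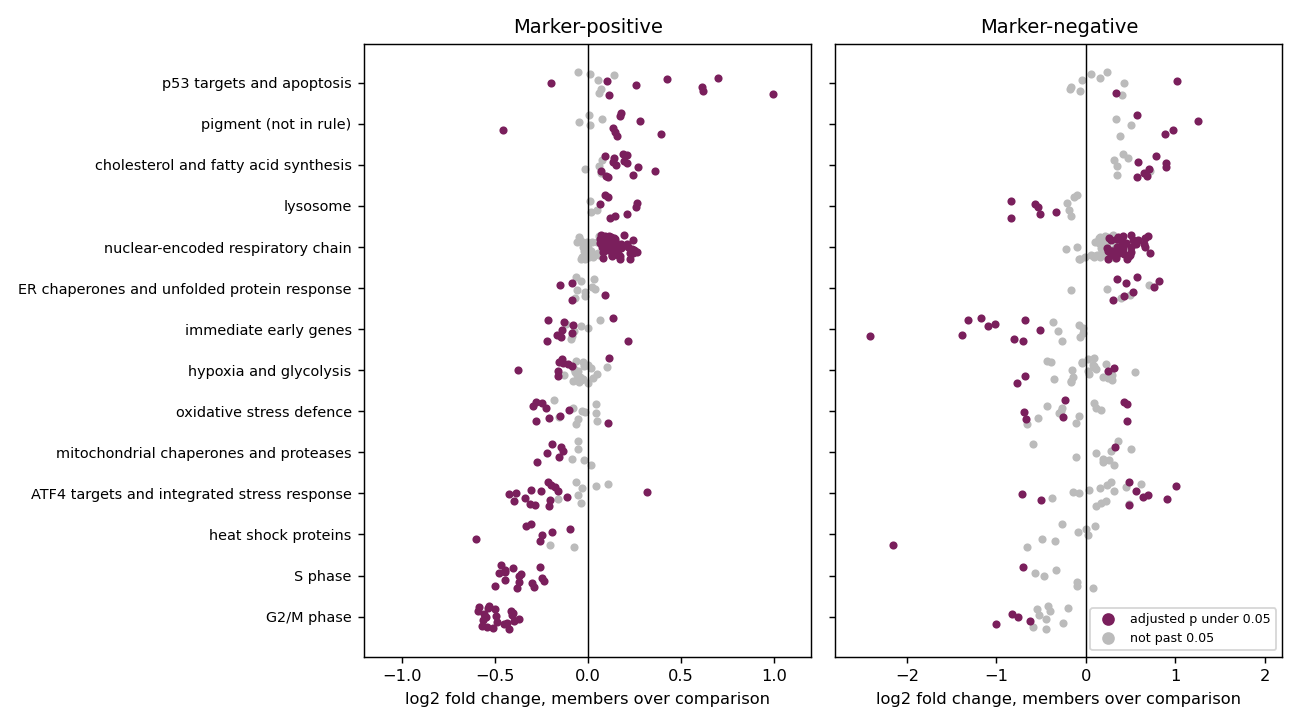
Log2 fold change of each measured gene, members over comparison barcodes, for 14 gene lists in marker-positive (left) and marker-negative (right) barcodes, on axes of different range, with genes past an edgeR adjusted p of 0.05 in purple. On the left all 21 G2/M and all 16 S phase genes lie below 0, and on the right the immediate early and lysosomal genes past the threshold lie below 0 and those of the ER chaperone list above it.

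Composition did not move steadily with the mitochondrial share. Each list was summed per tumour in bands of share, in marker-positive barcodes, and is given as the median of 8 tumours in UPM, with no test. G2/M genes stood at 2377 in the band from 5 to 7.5%, 1732 from 7.5 to 10%, 1252 from 10 to 15%, 1813 from 15 to 25% and 2318 from 25 to 50%. The p53 list stood at 948, 1169, 1401, 1473 and 889 UPM in the same bands. G2/M genes were thus lowest from 10 to 15% and the p53 list highest from 15 to 25%, and from 25 to 50% both were near their levels below the limit.

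Other lists moved on at the highest shares. The nuclear-retained and rRNA-linked list stood at 7710 UPM from 5 to 7.5%, 13499 from 10 to 15% and 41937 from 25 to 50%. Most of it was Malat1, a long noncoding RNA kept in the nucleus, at 6076, 11253 and 36074 UPM. Nuclear respiratory chain genes stood at 49334 from 10 to 15% and at 32287 from 25 to 50%, and hypoxia and glycolysis genes stood at 25176 and 14399. Gapdh, a glycolytic enzyme with an abundant cytosolic transcript, named after its values were seen, went from 5862 at 5 to 7.5% to 1620 UPM at 25 to 50%. Just outside and just inside the limit the lists were close, at 2033 and 1899 UPM for G2/M genes and 6424.5 and 6602 for Malat1.

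**Figure D4:**
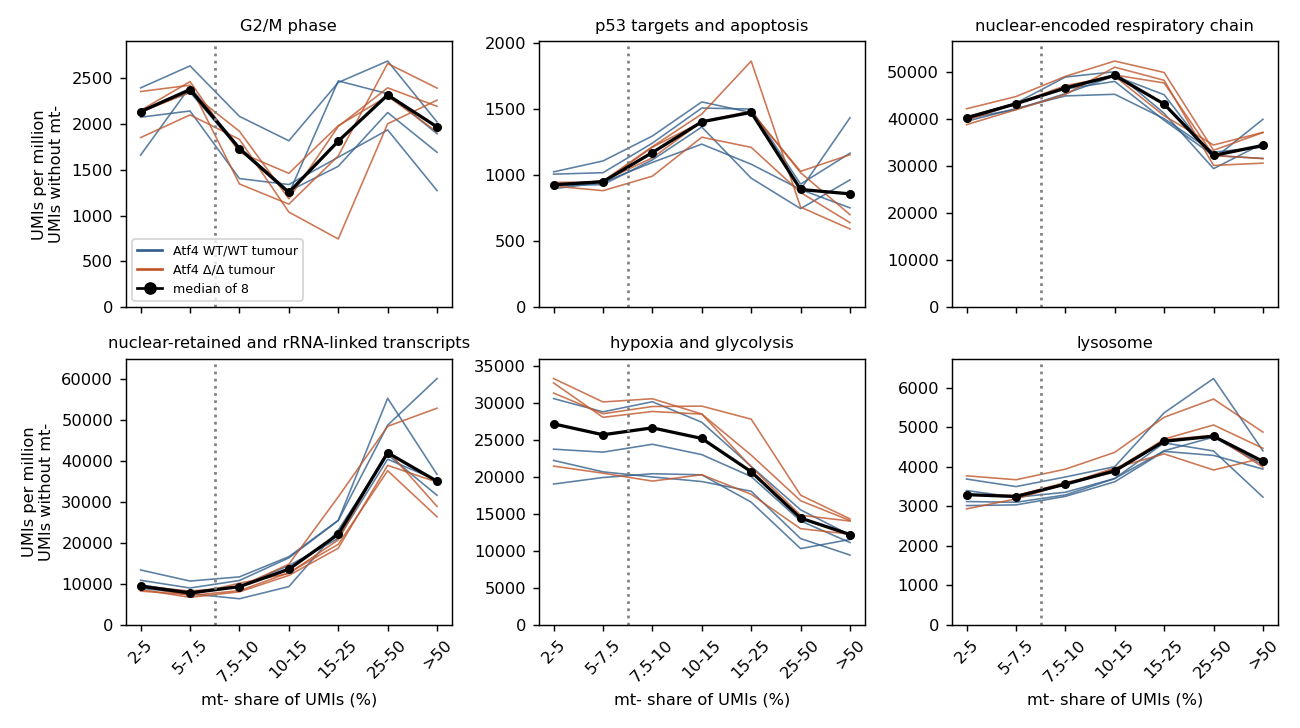
Summed level of 6 gene lists in marker-positive barcodes, in UMIs per 1000000 non-mitochondrial UMIs (UPM), by band of mitochondrial share, with a line per tumour coloured by host genotype, the median of 8 tumours in black and the 7.5% limit dotted. The G2/M median is lowest (1252) from 10 to 15%, and the median of the nuclear-retained and rRNA-linked list is highest (41937) from 25 to 50%.

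The test was repeated on both ends of this range. In members of 7.5 to 15%, 2060 genes were higher (16.9%) and 2244 lower (18.5%) of 12162 tested, 35.4% in all. In members above 25%, 2859 were higher (25.1%) and 3253 lower (28.6%) of 11384, 53.7% in all. Of the 77 nuclear respiratory chain genes 2 were higher and 68 lower above 25% (median -0.76), and of the 29 hypoxia and glycolysis genes 6 were higher and 18 lower (median -0.90). All 6 transcripts of the nuclear-retained and rRNA-linked list were higher above 25% (median 2.10), whereas from 7.5 to 15% 2 were (median 0.05). Over the whole range of members 4 of the 6 rose, and Malat1 had 7676 to 11369 CPM against 5800 to 8862 CPM (log2 fold change 0.47 ± 0.04). Transcript length went with the change above 25%. In 4 groups of equal size from the shortest to the longest transcripts the median log2 fold change was -0.43, -0.24, 0.05 and 0.43 above 25% and 0.02, -0.00, 0.00 and 0.01 from 7.5 to 15%. The part of length in the list changes was not tested.

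The 407 marker-negative members came in sums of 39 to 61 barcodes per tumour, with median non-mitochondrial depths of 767 to 1864 UMIs per barcode against 2269 to 4589 UMIs in the comparison barcodes. With the pigment share taken of non-mitochondrial UMIs, the sums of marker-negative members held 25 to 48 barcodes. Of 5086 genes tested 481 were higher (9.46%) and 591 lower (11.6%), or 21.1% in either direction, with a median of 0.02 over all genes. With the pigment share of non-mitochondrial UMIs, 367 of 4717 genes tested were higher and 513 lower. The 481 higher genes became 261 with DESeq2 and 240 in members above 10%. With barcodes of 3000 to 15000 UMIs 228 were higher and 336 lower. In that window Atf4 Δ/Δ replicates 1 and 4 had 9 and 8 marker-negative members, under the minimum of 10 per sum. Depth and the tumours in the test thus changed together. Higher genes were 44.9% of those past the threshold, 49.0% without TMM scaling and 20.02% with mitochondrial UMIs in the totals, where the median of all genes was -0.12.

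Stromal and immune genes were far lower in marker-negative members. More mitochondrial UMIs lower a barcode's pigment share of all UMIs, so the class rule places some barcodes with pigment RNA among these members. The part of this in the marker-negative results below was not tested. All 9 fibroblast markers tested fell (median log2 fold change -3.26) and so did 8 of 10 macrophage markers (median -1.09). Dcn, a collagen-binding proteoglycan of fibroblasts, had 0 to 184 CPM (median 42.6) against 72.3 to 2034 CPM (median 552), with a log2 fold change of -3.47 ± 0.31 (SE, edgeR adjusted p = 2.47e-05). Tyrobp, a signalling adaptor of myeloid cells, had 15.7 to 296 CPM (median 90.7) against 141 to 831 CPM (median 353), and Egr1, an immediate early transcription factor, 13.4 to 174 CPM against 47.5 to 577 CPM. These 3 genes were lower in 8 of 8 tumours while their ranges overlapped. The largest decreases were those of Plac8, Mfap5, Lsp1, Cthrc1, Ptx3, Saa3, Tnfaip6, Tnc, Bicc1 and H2-Aa, which include genes of extracellular matrix (Mfap5, Cthrc1, Tnc), acute inflammation (Ptx3, Saa3) and antigen presentation (H2-Aa). Plac8 and Lsp1 had a median of 0 CPM in members, so the size of their fitted change depends on edgeR's prior count.

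Summed over the list, fibroblast markers had 6.51 to 6657 UPM in marker-negative members (median 868) and 1802 to 25785 in comparison barcodes (median 10797), lower in 8 of 8 tumours. In Atf4 Δ/Δ replicate 3 the members held 1 UMI of the list and 9 of its 10 genes were at 0. Macrophage markers summed to 108 to 7549 UPM (median 1700) against 909 to 12253 (median 3599), also lower in 8 of 8. Members and comparison barcodes thus differed in how many such cells, or how much of their RNA, they held, and these cannot be told apart in sums. No marker-negative member held a UMI of the erythroid or keratinocyte lists.

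Genes of the ER and of the respiratory chain were higher in the same sums. Pigment genes are given as a description, since the class limit was itself set on pigment genes and 174 of the 407 members but 285 of the 1489 comparison barcodes lay just under it. Of 7 pigment genes not used for the classes 4 were past the threshold, all higher (median 0.58), and so were 4 when the limit was taken of non-mitochondrial UMIs and 1 with barcodes of 3000 to 15000 UMIs. That UMI window also left the member sums of Atf4 Δ/Δ replicates 1 and 4 under the minimum of 10 barcodes. Mitf, the master regulator of melanocytes, had 85.9 to 369 CPM (median 187) against 50.6 to 138 CPM (median 85.1), a log2 fold change of 1.25 ± 0.18 (SE). Of 13 ER chaperone genes 8 rose (median 0.45), and 2 did in members above 10%, beside 240 of all 4460 genes tested there. With barcodes of 3000 to 15000 UMIs, and so without the sums of Atf4 Δ/Δ replicates 1 and 4, 3 rose, beside 228 of 4193. Among the 8 that rose over barcodes of every depth was Hspa5, the main ER chaperone, with 3030 to 5954 CPM against 2101 to 4062 CPM (0.53 ± 0.07). Of 77 nuclear respiratory chain genes 40 rose (median 0.28), or 15 with mitochondrial UMIs in the totals, beside 215 of all 5044 genes tested. Uqcrq had 1672 to 2449 CPM against 820 to 1613 CPM with no overlap. Of 14 cholesterol and fatty acid genes 8 rose (median 0.62). No gene of the ER, respiratory chain and cholesterol lists fell.

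Among 23 ATF4 and stress response targets 7 rose and 2 fell, beside 9.46% of all genes tested higher and 11.6% lower. The falls were near that share. Pck2, a mitochondrial phosphoenolpyruvate carboxykinase, and Asns, asparagine synthetase, had log2 fold changes of 0.69 ± 0.15 and 0.56 ± 0.14, and Cebpb, a transcription factor, fell by 0.71. Of 81 ribosomal protein genes 18 rose and 2 fell, with a median that turned to -0.04 when mitochondrial UMIs were kept in the totals. Malat1 had 19140 to 39417 CPM against 13321 to 21142 CPM. Of 9 interferon and MHC genes 8 fell (median -0.99), of 17 immediate early genes 10 fell (median -0.68) and of 11 lysosomal genes 6 fell (median -0.33), and none of these 3 lists held a gene that rose. The largest increases included Azgp1, a secreted glycoprotein, with 130 to 388 CPM against 27.0 to 119 CPM and no overlap (1.85 ± 0.17), Bfsp2, a filament protein (1.81 ± 0.24), and Sox6, a transcription factor (1.40 ± 0.20).

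Counts for the cell cycle, p53 and remaining lists in marker-negative members stand beside 9.46% of all genes higher and 11.6% lower. Of 13 G2/M genes 4 fell and none rose, of 7 S phase genes 1 fell, and of 11 p53 genes 2 rose. Of 9 heat shock genes 1 fell, and of 18 genes of oxidative stress defence 3 rose and 4 fell. Of 27 of hypoxia and glycolysis 2 rose and 2 fell, of 8 of mitochondrial genome upkeep 2 rose, and of 11 mitochondrial chaperones 1 rose. Of 6 nuclear-retained and rRNA-linked transcripts 2 rose, and of 2 endothelial genes neither passed. Trp53inp1 had 31.3 to 105 CPM in marker-negative members against 13.7 to 37.0 CPM (1.02 ± 0.24).

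**Figure D5:**
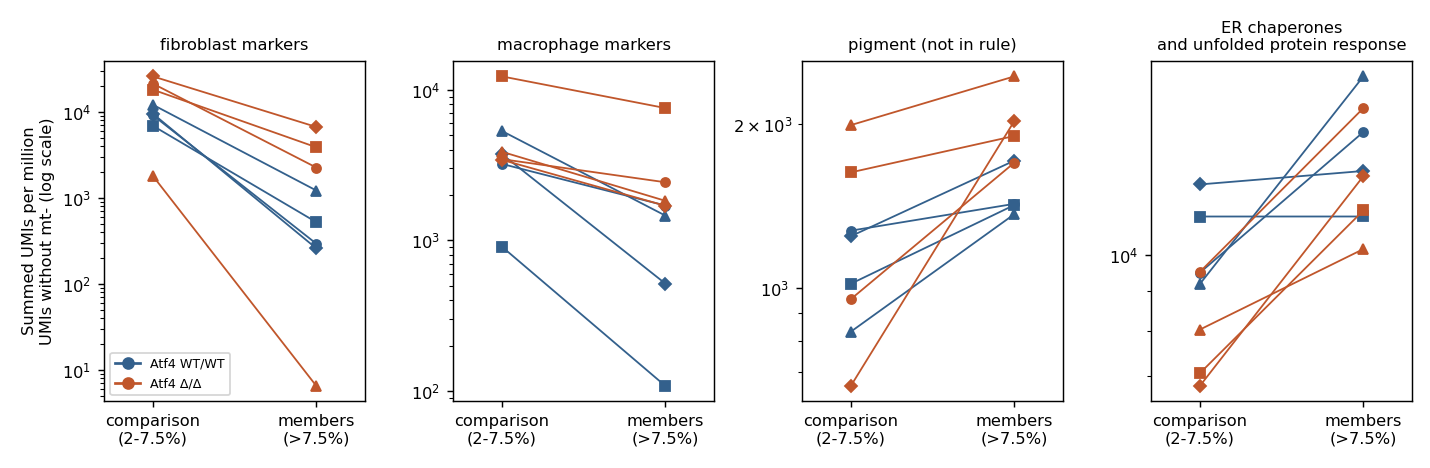
Summed level of 4 gene lists in marker-negative barcodes, in UMIs per 1000000 non-mitochondrial UMIs (UPM) on a log axis, joining comparison barcodes and members of each tumour. Fibroblast markers (median 10797 to 868) and macrophage markers (median 3599 to 1700) are lower in members of all 8 tumours, and the ER chaperone list is higher in members of all 8, as is the list of pigment genes not used for the classes, which is shown as a description because the class limit was set on other pigment genes.

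The change differed between the classes for many genes. The classes were set on a pigment share of all UMIs, and the part of that rule in the difference was not tested. In a test of the difference itself (edgeR, interaction of class and state), 252 genes moved higher (2.19%) and 1173 lower (10.2%) in marker-negative than in marker-positive barcodes, or 12.4% of 11509. All 11 lysosomal and all 10 fibroblast genes tested were in the lower set, as were 11 of 17 immediate early, 11 of 21 interferon and 5 of 10 macrophage genes, while 8 of 23 ATF4 targets, 8 of 77 respiratory chain genes and 7 of 13 ER chaperones were in the higher set. With barcodes of 3000 to 15000 non-mitochondrial UMIs in all sums, 146 genes were higher and 725 lower. The marker-negative member sums of Atf4 Δ/Δ replicates 1 and 4, with 9 and 8 barcodes, were then under the minimum of 10. Depth and the sums in the test thus changed together. The lower set then held 7 of 11 lysosomal, 9 of 10 fibroblast, 9 of 17 immediate early, 7 of 20 interferon and 7 of 9 macrophage genes, and the higher set 3 of the 23 ATF4 targets, 9 of the 77 respiratory chain genes and 0 of the 13 ER chaperones. Of the genes past this test over barcodes of every depth, 113 also passed in both classes in opposite directions. An example, chosen after its values were seen, is Psap, the precursor of lysosomal activator proteins, which rose in marker-positive members (0.21 ± 0.03, log2 fold change and SE) and fell in marker-negative members (-0.51 ± 0.09).

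Host genotype was compared within the members. Atf4 itself gave 258, 370, 331 and 431 CPM in marker-positive members of Atf4 WT/WT tumours and 290, 350, 389 and 295 CPM in those of Atf4 Δ/Δ tumours (log2 fold change -0.07, edgeR adjusted p = 0.922). Most of these barcodes carry melanoma RNA with an intact gene, so the levels do not check the deletion. In marker-negative members it gave 536, 692, 578 and 526 CPM, from 80 to 119 UMIs per tumour, against 540, 599, 624 and 363 CPM, from 29 to 80 UMIs (log2 fold change -0.12, edgeR adjusted p = 0.892). In marker-negative comparison barcodes Atf4 stood at 366, 600, 370 and 474 UPM in the Atf4 WT/WT tumours and 317, 240, 563 and 208 UPM in the others, with overlap and with no test. Since barcodes of either class can hold melanoma RNA, these levels do not check the deletion either. Between states, Atf4 in marker-positive barcodes had 256 to 423 CPM in members and 275 to 449 CPM in comparison barcodes (-0.20 ± 0.03, edgeR adjusted p = 2.30e-06), lower in 8 of 8 tumours with overlapping ranges.

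No gene passed between genotypes in marker-positive members: 0 of 11581 (0%) with edgeR, where 1075 had an unadjusted p under 0.05. DESeq2 called 17 higher and 13 lower and gave no adjusted p for 8756 of the 11581 genes. The state change did not pass between genotypes either, for 0 of 12674 genes with edgeR (0%; 658 at an unadjusted p under 0.05, 1 higher and 0 lower with DESeq2). In marker-negative members 4 of 2760 genes passed (0.145%), 3 of them higher (0.109%) and 1 lower (0.0362%) in Atf4 Δ/Δ tumours, and all were named after their values were seen. Spp1, which encodes osteopontin, gave 32.8, 17.4, 57.8 and 54.2 CPM in the Atf4 WT/WT tumours and 333, 738, 281 and 714 CPM in the Atf4 Δ/Δ tumours (log2 fold change 3.66 ± 0.42, edgeR adjusted p = 3.55e-03). These values rest on 3 to 10 and on 24 to 96 UMIs per tumour, and the groups did not overlap. In marker-negative comparison barcodes Spp1 stood at 502 to 926 UPM in the Atf4 WT/WT tumours and 725 to 2011 UPM in the others, with overlap.

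The melanosomal and lysosomal glycoprotein gene Gpnmb averaged 684 ± 92.4 and 1324 ± 246 CPM (SD, n = 4 each, log2 fold change 0.96), Ahnak2 was higher by 1.34 on the log2 scale, and Atp5g1, a subunit of ATP synthase, was lower with 1276 ± 171 and 767 ± 45.7 CPM (edgeR adjusted p = 0.0445). Beside these genes, macrophage markers in marker-negative members summed to 108 to 1702 UPM in the Atf4 WT/WT tumours and 1698 to 7549 UPM in the others. Fibroblast markers summed to 258 to 1216 UPM in the former, and to 2247, 3866, 6.51 and 6657 UPM in the latter. The 9 that were at 0 in Atf4 Δ/Δ replicate 3 included Col1a1, the most abundant marker in 6 of the other 7 tumours. Over the genes tested the median log2 fold change was 2.48 for the 4 fibroblast and 1.69 for the 7 macrophage markers, of which none passed. Their part in the 4 genes was not tested. With the replicate number as a block 1 gene was higher and 0 were lower, and without Atf4 Δ/Δ replicate 3, 38 genes were higher and 2 lower. With any other tumour left out no gene was lower, and without Atf4 WT/WT replicate 3 only 1 was higher.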

How the data were processed

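The authors deposited 1 matrix of UMI counts per tumour, whole counts per gene and barcode without normalization, made per the labels with Cell Ranger 3.1.0 on GRCm38 and analysed with Seurat 3.2.1. The labels and the study differ in the kit version and in host age. Members, comparison barcodes and marker classes were defined by the limits given in the report, and the members and gene lists were chosen with earlier results of these data known. Counts of the barcodes of a tumour, class and state were summed (at least 10 barcodes), without the 13 mt- genes, and tested with edgeR 4.0.16 (TMM, filterByExpr, quasi-likelihood test, Benjamini-Hochberg adjustment) in R 4.3.3, with the tumour as a block within tumours and with no block between genotypes. Shares were tested by exact permutation (scipy 1.17.1). Each mouse gave 1 tumour, so the replicate is the mouse.

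Named genes were the 10 with the largest log2 fold change on each side among those past an adjusted p of 0.05, with 1 direction in all 8 tumours and at least 50 CPM in the higher state, the first 3 of each list by adjusted p, the mt- genes and Atf4. Others were named after their values were seen. Predicted genes were not named, and 1 gene of the p53 list is not reported here by name. The edgeR tests between states and between genotypes in members, in each class, were checked on simulated data with known changes; the tests of interactions were not. DESeq2 1.42.0, other filters, scalings, limits, depth windows, a sex covariate and a replicate block were tried as alternatives. The step to members above 25% was added after the data were seen. Intervals are SD over tumours or SE of the fit. Promoters came from RefSeq (GRCm38.p6) and transcript lengths (GENCODE vM21) were matched for 99.9% of genes. No doublet caller was run.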

Additional observations from a re-analysis of the deposited data

Results flagged for a closer look

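In the comparisons of lists and shares, 53 sets of 4 to 8 tumour values were examined for a tumour far from the others, and 6 had one. Chance also gives some such sets, and how many was not worked out. In Atf4 WT/WT replicate 4, 38.0% of the marker-positive barcodes were above the limit, far from the other 3 tumours of its group. In the same tumour the log2 ratio of members over comparison barcodes in marker-positive barcodes was -0.364 for the summed heat shock proteins and 1.37 for the summed macrophage markers, of which Lyz2 was the most abundant, and both lay far from the other 7 tumours. In marker-negative barcodes the log2 ratio stood apart at 1.62 for pigment genes outside the rule in Atf4 Δ/Δ replicate 4, at 0.461 for the p53 list in Atf4 Δ/Δ replicate 1 and at 1.38 for cholesterol and fatty acid synthesis in Atf4 Δ/Δ replicate 2.

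The change from comparison barcodes to members differed between the marker classes for 1425 genes by the edgeR interaction test, and 113 of these passed in both classes in opposite directions. Outside the gene limits, 49 of the 50 barcodes with fewer than 200 genes were above the mitochondrial limit, as were 125 of the 622 with more than 5000 genes. These barcodes were in no comparison.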

How the results depend on the processing

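Between genotypes the share of members differed by -9.12 percentage points, -4.16 with the limit at 10% (exact permutation p = 0.0571), -9.12 with the replicate number as a block (exact sign-flip permutation p = 0.125, the smallest that 4 pairs allow) and -11.7 to -7.64 without 1 tumour, with p of 0.0571 (exact permutation) without any 1 of the Atf4 WT/WT tumours. The replicate numbers did not pair the tumours: deviations of same-numbered tumours correlated at -0.0892, -0.381, -0.312 and -0.253, and no tumour correlated best with its own number. Between classes the share differed by -12.6 points, -1.68 with the limit at 10% and -14.8 to -11.3 without 1 tumour. Genes per thinned barcode differed by -2.75, by 3.75 above 10%, and by -3.96 to 1.90 without 1 tumour, where the 1.90 was without Atf4 WT/WT replicate 4. The share of mt-Atp6 turned to -0.0030 points from 3000 to 15000 UMIs, and mt-Atp8 and mt-Nd4l turned to 0.0138 and 0.0026 points above 10%.

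In marker-positive barcodes 1559 genes were higher with mitochondrial UMIs in the library totals, against 2412. Above 25% the log2 fold change turned to -0.39 for Cck, -0.0298 for Mgll, -0.27 for S100b, -0.34 for Ptgds, -0.35 for Phlda3, -0.53 for Cdkn1a and -0.45 for Selenop. In marker-negative barcodes the 481 higher genes became 261 with DESeq2, 312 with no filter, 215 with mitochondrial UMIs in the totals, 240 above 10%, 218 against comparison barcodes of 4 to 6% and 228 from 3000 to 15000 UMIs. The 591 lower genes became 1507 with no filter, 312 against 4 to 6% and 336 from 3000 to 15000 UMIs. From 3000 to 15000 UMIs, Atf4 Δ/Δ replicates 1 and 4 had 9 and 8 marker-negative members, under the minimum of 10 per sum. Depth and the tumours in the test thus changed together. For the difference between classes, 252 higher genes became 405 with no filter, 569 with DESeq2, 146 from 3000 to 15000 UMIs and 155 to 271 without 1 tumour, the 155 without Atf4 WT/WT replicate 3, and 1173 lower genes became 725 from 3000 to 15000 UMIs. The counts from 3000 to 15000 UMIs again lack the marker-negative member sums of Atf4 Δ/Δ replicates 1 and 4.

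Between genotypes in marker-positive members, 17 genes were higher and 13 lower with DESeq2, which gave no adjusted p for 8756 genes. The counts were 6 and 5 with no filter, 0 and 0 with the replicate block, and 0 to 3 and 0 to 1 without 1 tumour. In marker-negative members 5 were higher with DESeq2, 46 higher and 20 lower with no filter, 1 and 0 with the replicate block, 0 lower with sex as a covariate, and 1 to 38 higher (38 without Atf4 Δ/Δ replicate 3, 1 without Atf4 WT/WT replicate 3) and 0 to 2 lower without 1 tumour. For the state change between genotypes 20 were higher and 24 lower with no filter, 1 was higher with DESeq2, and 0 to 1 were higher and 0 to 5 lower without 1 tumour, the 5 without Atf4 WT/WT replicate 1. The causes were not tested. Over the single genes and their alternatives 409 values kept direction and side of the threshold, 41 lost and 2 gained the threshold, and 10 turned. The sums of marker-negative members held 39 to 61 barcodes per tumour.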
